A study of Mus musculus with 9 samples.

Results

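The genes described here encode structured small noncoding RNAs, short transcripts that fold and act as RNA rather than as messages. They were 64 of the 19938 mouse genes that had an array row with their symbol alone. They were chosen by symbol only: small nucleolar RNAs (Snord and Snora), Cajal body RNAs (Scarna), small nuclear RNAs (Rnu followed by a digit), 5S ribosomal RNA (n-R5s), 7S RNAs (Rn7s), and the genes Rpph1, Rmrp and Terc. By class, 32 were box C/D small nucleolar RNAs, 20 box H/ACA small nucleolar RNAs, 4 small nuclear RNAs and 3 Cajal body RNAs. The 5S ribosomal RNA, 7SK RNA, RNase P RNA, RNase MRP RNA and telomerase RNA were each represented by 1 gene. Where a gene had several rows, as 7 of the 64 did, the one with the highest average was used. A further 63 rows of the same RNA families carried several symbols and were not used here, among them 24 of Snord116, 9 of U1, 4 of U3b and 2 of 7SL RNA.

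Each array held the amplified RNA of 1 oocyte at metaphase II. The females were non-mated, of the outbred ICR strain and 2 months old, and had been injected with PMSG (10 IU) and then hCG (10 IU, after 46 hours), hormones that stimulate follicle growth and ovulation. The 3 groups shared strain, age and hormones and differed in how RNA was prepared: 3 oocytes with the Qiagen RNeasy Mini column kit, 3 with the Arcturus PicoPure column kit, and 3 lysed in NuGEN direct lysis buffer and used as crude lysate. Amplification used the NuGEN Ovation One-Direct kit throughout, and products were hybridised to Affymetrix Mouse Gene 1.0 ST arrays. Between 1 and 3 cells came from each of 3 mice per condition, and the mouse behind a given oocyte is not named in the labels. The p-values set differences between preparations against the spread between oocytes within a preparation. Differences between mice cannot be told apart from either, and the RNA content of an oocyte cannot be told apart from its recovery.

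Small nucleolar RNAs guide the chemical modification of ribosomal RNA by base pairing. Box C/D RNAs direct ribose methylation and box H/ACA RNAs direct conversion of uridine to pseudouridine, while a few, such as U3 and U8, are needed for cutting the ribosomal RNA precursor. In mammals most are excised from introns of genes for ribosomal proteins, translation factors and noncoding host transcripts, and most lack a poly(A) tail. Cajal body RNAs guide the same modifications on small nuclear RNAs, the RNA parts of the spliceosome. 5S RNA, 7SK RNA, RNase P RNA, RNase MRP RNA and U6 are made by RNA polymerase III. A fully grown oocyte has ceased transcription, so the RNAs present at metaphase II were made earlier.

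Values are on the log2 scale as deposited, so a difference of 1 is a doubling. A gene was counted as above background on an array where it exceeded the 95th percentile of 1246 olfactory, vomeronasal and taste receptor genes on that array. This level lay between 7.19 and 7.48, with a mean of 7.29. The RNeasy arrays had the levels 7.41, 7.27 and 7.48, and the PicoPure arrays 7.19, 7.26 and 7.26. Every RNeasy level was above every PicoPure level, but only narrowly for RNeasy replicate 2 (7.267) against PicoPure replicate 2 (7.264). Of 12 oocyte markers, 11 were above background on all 9 arrays and the other, Figla, on 8. Of 15 measured markers of cumulus and granulosa cells, the somatic cells around the oocyte, 8 never exceeded background and 3 always did. The summed level of these 15 ran from 104.9 to 111.8 and was highest on RNeasy replicate 3. On the array of RNeasy replicate 2, 17 of the 64 small RNA genes were above background, against 10 to 13 on the other 8 arrays. Of all genes, 53.9% were above background on that array, within the range of the other 8, 48.4% to 57.4%. The counts of genes above background and the call for n-R5s136 are also given without RNeasy replicate 2.

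Few of these RNAs gave a signal above background. Only 7 of the 64 were above it on all 9 arrays (10.9%), against 43.1% of all 19938 genes. Another 18 were above it on some arrays, and 39 on none (60.9%, against 35.1% of all genes). Over the 8 arrays left without RNeasy replicate 2, the counts were 7, 16 and 41, since Snora52 and Snord49a were above background on that array only. The 7 were n-R5s136, Rn7sk, Rpph1, Rmrp, Scarna13, Snord49b and Snord55. The first 4 of these are RNA polymerase III transcripts, and the others are a Cajal body RNA and a pair of box C/D RNAs. In the large classes, 2 of 32 box C/D and 0 of 20 box H/ACA genes were above background on all 9 arrays. With the 90th percentile of the receptor genes as the limit the 7 became 11, with Scarna17, Snora73a, Snord8 and Terc added, and with the 99th percentile only Rn7sk and n-R5s136 were left. A value below the limit does not show that an RNA was absent from the oocyte.

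**Figure D1:**
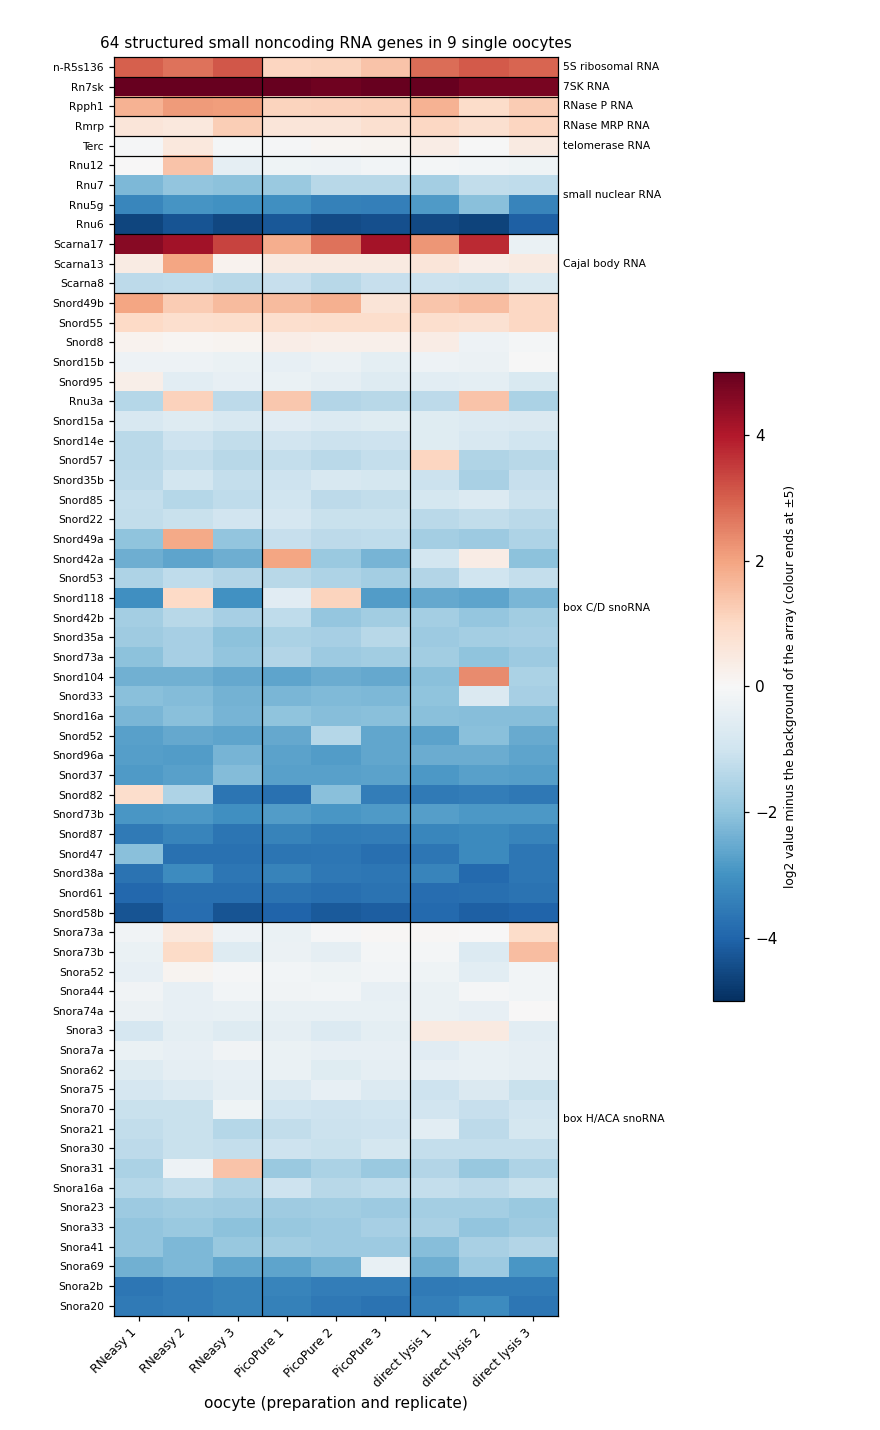
Deposited log2 value minus the background level of the same array for each of the 64 genes (rows, by RNA class) on each of the 9 single-oocyte arrays (columns, by preparation). Red cells are above background and blue cells below it, and only 7 rows are above background on all 9 arrays. Colours show each row against background and do not rank RNAs against each other, since each row has its own probes.

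The 5S ribosomal RNA gene n-R5s136 was the only member that passed the test between preparations. 5S RNA is a component of the large ribosomal subunit, and before assembly it is bound by ribosomal protein L5 or the transcription factor TFIIIA. Its values were 10.38, 10.00 and 10.57 in the RNeasy oocytes (mean 10.31 ± 0.29, SD, n = 3). They were 8.27, 8.39 and 8.67 in the PicoPure oocytes (8.44 ± 0.21, SD, n = 3). In the crude lysates they were 10.02, 10.34 and 10.19 (10.18 ± 0.16, SD, n = 3). The PicoPure oocytes were lower than every other oocyte, while the RNeasy and crude lysate values overlapped.

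In a limma fit across all 19938 genes with Benjamini-Hochberg adjustment, n-R5s136 was lower in PicoPure than in RNeasy oocytes by -1.87 ± 0.17 (SE) on the log2 scale, 3.66-fold (adjusted p = 0.0165). It was 1 of 64 members called in that comparison, where 0.0602% of all genes were called. Crude lysate was higher than PicoPure by 1.74 ± 0.17 (SE), 3.33-fold (limma adjusted p = 0.0104), again the only member called, where the background was 0.597%. Crude lysate against RNeasy differed by -0.13 ± 0.17 (SE), with a limma adjusted p of 0.747. The moderated F test over the 3 preparations called n-R5s136 alone among the members (adjusted p = 0.0117), where 0.637% of all genes were called. The PicoPure and RNeasy call held in only 10 of 18 alternative analyses. The groups did not overlap, so leaving out 1 oocyte could not reverse the direction. The gene has 1 row, so averaging rows or testing every row left its own values unchanged. The call was lost without any 1 of RNeasy replicates 1 and 3 (limma adjusted p = 0.0898 and 0.0716) or PicoPure replicates 1, 2 and 3 (0.0769, 0.0794 and 0.0545). It stood at 0.0281 without RNeasy replicate 2. The crude lysate and PicoPure call held in 16 of 18 and was lost without PicoPure replicate 2 (0.0578). RefSeq lists 69 mouse entries with 5S symbols of this kind, which are near-identical copies, so the row cannot be assigned to 1 of them.

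**Figure D2:**
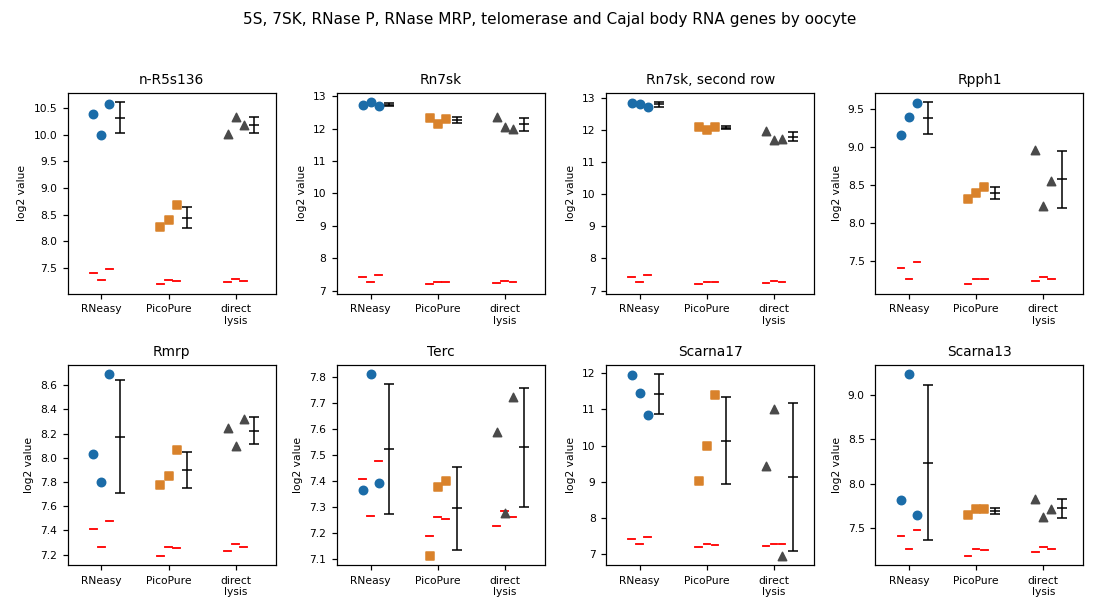
Deposited log2 values of the 5S, 7SK (both rows), RNase P, RNase MRP, telomerase and 2 Cajal body RNA genes, 1 point per oocyte (direct lysis is the crude lysate), with the mean ± SD of the 3 oocytes of each preparation (black) and the background level of each array (short red lines). For n-R5s136 the 3 PicoPure oocytes sit between 8.27 and 8.67, below the other 6, and for Rn7sk the 3 RNeasy oocytes sit between 12.70 and 12.81, above the other 6.

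7SK RNA, the product of Rn7sk, holds the transcription elongation factor P-TEFb in an inactive complex. The row used here read 12.72, 12.81 and 12.70 in the RNeasy oocytes (mean 12.74 ± 0.06, SD, n = 3). It read 12.33, 12.14 and 12.29 in the PicoPure oocytes (12.26 ± 0.10, SD, n = 3) and 12.35, 12.03 and 11.999 in the crude lysates (12.13 ± 0.20, SD, n = 3). The RNeasy values did not overlap with either of the other preparations, which overlapped with each other. The differences from RNeasy were -0.48 ± 0.11 (SE) for PicoPure (limma adjusted p = 0.303) and -0.61 ± 0.11 (SE) for crude lysate (adjusted p = 0.0640), and neither passed the threshold.

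A second row of Rn7sk gave larger differences in the same direction. Its values were 12.84, 12.80 and 12.71 with RNeasy, 12.08, 12.002 and 12.08 with PicoPure, and 11.95, 11.70 and 11.72 in crude lysate. In this row no group overlapped with another. Each of the 21789 rows with 1 symbol was also tested as its own feature. The second Rn7sk row then passed the threshold in limma for crude lysate against RNeasy (-0.999 ± 0.09 SE, adjusted p = 0.00877), where 96 of the 21789 rows were called. It also passed for PicoPure against RNeasy (-0.73 ± 0.09 SE, adjusted p = 0.0483), where 14 rows were called. In crude lysate against purified RNA it passed as well (-0.63 ± 0.07 SE, adjusted p = 0.0155), where 203 rows (0.932%) were called. Both rows were highest in RNeasy oocytes, but the calls depended on the row and on other choices. The row used here passed for crude lysate against RNeasy with a trended variance (limma adjusted p = 0.0479), and without crude lysate replicate 1 (0.0250). Without that replicate it also passed for crude lysate against purified RNA (limma adjusted p = 0.0416).

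Rpph1 encodes the RNA subunit of RNase P, which removes the leader from transfer RNA precursors. Its values were 9.15, 9.40 and 9.57 with RNeasy (mean 9.37 ± 0.21, SD, n = 3), 8.31, 8.40 and 8.47 with PicoPure (8.39 ± 0.08, SD, n = 3), and 8.96, 8.21 and 8.55 in crude lysate (8.57 ± 0.37, SD, n = 3). The RNeasy values were above all 6 others, and the crude lysate values spanned the PicoPure range. PicoPure minus RNeasy was -0.98 ± 0.19 (SE), 1.98-fold, but the limma adjusted p was 0.198, and 0 of 18 alternatives called it. Crude lysate minus RNeasy was -0.80 ± 0.19 (SE), with an adjusted p of 0.144.

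Rmrp encodes the RNA of RNase MRP, a relative of RNase P that cuts the ribosomal RNA precursor. Its values were 8.03, 7.80 and 8.69 with RNeasy, 7.78, 7.85 and 8.06 with PicoPure, and 8.25, 8.10 and 8.32 in crude lysate. The crude lysate values were all above the PicoPure values and lay within the RNeasy range. Crude lysate minus PicoPure was 0.33, which did not pass the threshold. Terc is the template RNA of telomerase. It read 7.37, 7.81 and 7.39, then 7.11, 7.38 and 7.40, then 7.59, 7.28 and 7.72 in the same order of preparations, and was above background on 5 of 9 arrays. Its 3 preparations overlapped.

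The small nuclear RNAs were mostly below the limit. Rnu12 encodes U12, which recognises the branch site of the minor class of introns. It was above background on 2 arrays, RNeasy replicate 1 at 7.42 and RNeasy replicate 2 at 8.68, and the other 7 ran from 6.96 to 7.14. Rnu5g encodes a U5 RNA of the spliceosome, Rnu6 the U6 RNA at its catalytic centre, and Rnu7 the U7 RNA that directs trimming of histone messages. None of these 3 was above background on any array. Rnu6 ran from 2.64 to 3.17 over the 9 oocytes, Rnu5g from 3.84 to 5.20 and Rnu7 from 5.15 to 6.06.

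The 3 Cajal body RNAs differed in pattern. Scarna13 was above background on all 9 arrays, with 8 of them between 7.62 and 7.83 and RNeasy replicate 2 alone at 9.24. Scarna17 was above background on 8 of 9 arrays and had a wide spread. It read 11.97, 11.47 and 10.85 with RNeasy, 9.02, 9.99 and 11.40 with PicoPure, and 9.42, 11.01 and 6.94 in crude lysate. The groups overlapped, and the pooled SD between oocytes of a preparation was 1.41. Crude lysate minus purified RNA was -1.66 ± 0.87 (SE), with a limma adjusted p of 0.432. Scarna8 lies inside Haus6 and was above background on no array.

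Of the 32 box C/D genes, 2 were above background on all 9 arrays, 9 on some and 21 on none. Snord49b, a guide for ribosomal RNA methylation, read 9.38, 8.55 and 9.05 with RNeasy, 8.76, 9.06 and 7.90 with PicoPure, and 8.62, 8.82 and 8.30 in crude lysate. Snord55, another methylation guide, had the lowest SD between oocytes of a preparation, 0.125, among the 7 genes above background everywhere. It read 8.39, 8.12 and 8.37, then 8.02, 8.14 and 8.14, then 8.07, 8.04 and 8.30. In both genes the 3 preparations overlapped. Snord49a lies in the same noncoding host gene as Snord49b, 2410006H16Rik, yet was above background in 1 oocyte only. Snord8, inside Chd8, was above background on 7 arrays, all at or below 7.63.

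Of the 20 box H/ACA genes, 0 were above background on all 9 arrays, 6 on some and 14 on none. Snora73a and Snora73b, both in the host gene Snhg3, are copies of U17, which is needed for cutting the ribosomal RNA precursor rather than for pseudouridine formation. Snora73a was above background on 5 arrays and was highest in crude lysate replicate 3 at 8.18 and RNeasy replicate 2 at 7.79. Snora73b was above background on 2 arrays, which were the same ones, at 8.80 and 8.22. Probes of such similar RNAs may not separate them. Snora3, inside Rpl27a, was above background in crude lysate replicates 1 and 2 at 7.68 and 7.72, while its other 7 values ran from 6.58 to 6.82.

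Most of the small RNA genes lie inside another gene, and few were above background where the gene around them was. By RefSeq spans, read without strand, 54 of the 64 lie inside another gene and 10 stand alone. Of the 10 that stand alone, 4 exceeded background throughout and 2 never did. Of the 54 inside another gene, 3 exceeded background throughout and 37 never did. The surrounding genes with a row of their own numbered 26, and 21 of these were above background on all 9 arrays. Among the 24 small RNA genes whose surrounding gene was above background on all 9 arrays, 0 were so themselves, 6 were on some arrays and 18 on none. Gas5, a noncoding host, was above background in every oocyte, while Snord47 within it was so in none. For Ncl, which encodes nucleolin and was also above background in every oocyte, Snora75 inside it was above background on 0 arrays and Snord82 on 1. No surrounding gene passed the threshold in crude lysate against purified RNA or in PicoPure against RNeasy. This is near the share of all genes called, 1.01% and 0.0602%.

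Crude lysate and purified RNA were also compared over the members as a whole. In crude lysate against purified RNA, 0 of 64 were called by limma, where 1.01% of all genes were called, and 11 had an unadjusted p under 0.05, where the background was 14.2%. The lowest adjusted p was 0.0572, for n-R5s136, which was higher in crude lysate by 0.80 ± 0.15 (SE). In crude lysate against RNeasy, 0 were called, where 0.436% of all genes were, and 11 had an unadjusted p under 0.05, where the background was 13.4%. Both counts lie near the share of all genes. Crude lysate minus RNeasy was negative in 42 of 64 (65.6%, against 51.0% of all genes), with a median of -0.06, against -0.005 over all genes. Over the 7 above background on all 9 arrays the median was -0.42, against -0.003 over the 8589 such genes in all. For crude lysate minus purified RNA the median over the 64 was -0.04, against 0.00 over all genes, and 35 of 64 were negative (54.7%, against 49.4% of all genes). Over the 7 above background on all 9 arrays that median was -0.21, against -0.02 over the 8589 such genes, and 5 of the 7 were negative.

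PicoPure against RNeasy had more negative than positive differences. The median over the 64 was -0.15, against -0.03 over all genes, and 51 of 64 were negative (79.7%, against 58.4% of all genes). Of genes with low values, 75.2% of the 7000 above background on no array were negative, with a median of -0.06, and 87.2% of the sensory receptor genes, with a median of -0.11. The 7 small RNA genes above background on all 9 arrays were all negative, with a median of -0.48, while of the 8589 such genes in all, 46.4% were negative, with a median of 0.02. The 39 above it on none had a median of -0.07. The part of the background level in the shift was not tested. In 8 of the 64 (12.5%) every PicoPure value was below every RNeasy value, where 7.03% of all genes did so. They were n-R5s136, Rn7sk, Rpph1, Snora31, Snord104, Snord15b, Snord33 and Snord53, of which the first 3 were above background on all 9 arrays. In 0 of the 64 was every PicoPure value higher, where the background was 6.92%. By limma, 5 of the 64 had an unadjusted p under 0.05, where the background was 7.98%. Without RNeasy replicate 3, the median over the 64 was -0.07, against -0.01 over all genes, and 22 of the 64 differences were positive. That oocyte had the highest background level and cumulus marker sum, and the part of either in the shift was not tested.

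In crude lysate against purified RNA every crude value was higher in 4 of the 64 (background 4.31%) and lower in 3 (3.72%), and none of these 7 was above background on all 9 arrays. The 4 were Scarna8, Snord104, Snord14e and Snord87, and the 3 were Snora2b, Snora30 and Snord22. Against RNeasy alone, crude values were all higher in 6 (background 7.97%) and all lower in 7 (8.89%), the latter including Rn7sk and Rpph1. Against PicoPure alone, they were all higher in 9 (background 8.94%), including n-R5s136 and Rmrp, and all lower in 5 (7.67%). The shares of members were 6.25%, 4.69%, 9.38%, 10.9%, 14.1% and 7.81% in this order.

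**Figure D3:**
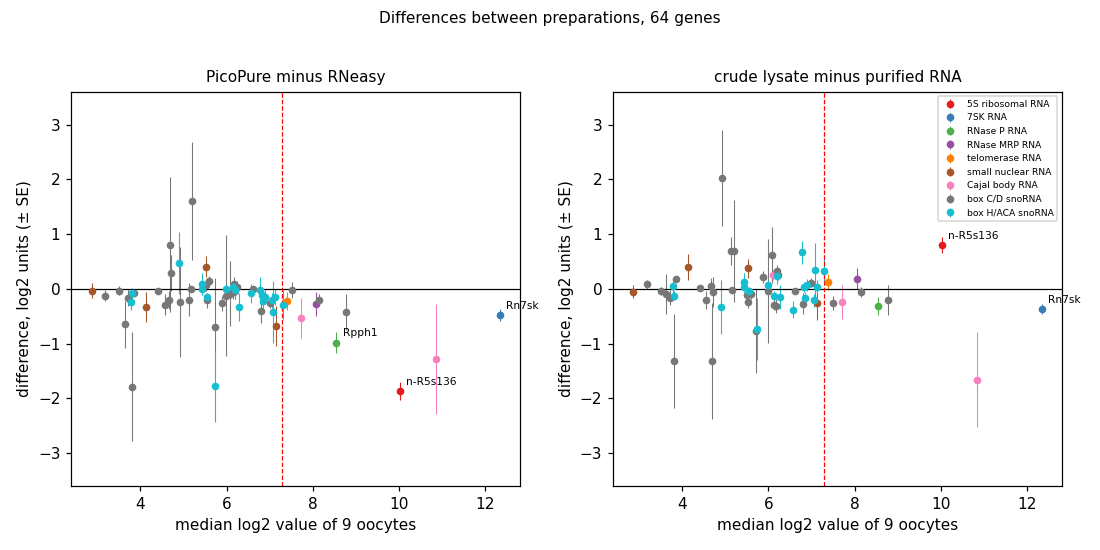
Difference in log2 value (± SE of the limma fit) for each of the 64 genes against its median log2 value over 9 oocytes, PicoPure minus RNeasy in the left panel and crude lysate minus purified RNA in the right, with the mean background level as a dashed red line. Colours mark the RNA class. In PicoPure minus RNeasy, 51 of 64 points are below 0, and n-R5s136 at -1.87 is the only one that passed the test.

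Some members below background in most oocytes stood high in 1 to 3 of them. By a rule chosen after the values were seen, a value was called isolated when it was above background and at least 2 log2 units above the gene's median over 9 arrays. This held for 8 of the 64 genes, where 1.12% of all genes met it. The rule was drawn from these members, so the share is a description only. Without RNeasy replicate 2 it held for 7. Of the 8, 7 were box C/D genes and 1 a box H/ACA gene.

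Rnu3a encodes U3, the box C/D RNA needed for the first cuts of the ribosomal RNA precursor. It stood at 8.43 in RNeasy replicate 2, 8.55 in PicoPure replicate 1 and 8.71 in crude lysate replicate 2, and between 5.67 and 6.18 in the other 6. The 3 high oocytes came from 3 different preparations. Snord118 encodes U8, which is needed for maturation of the large subunit RNA. It stood at 8.28 in RNeasy replicate 2 and 8.38 in PicoPure replicate 2, and between 4.34 and 6.63 in the other 7. Snord42a, a methylation guide inside Rpl23a, stood at 9.15 in PicoPure replicate 1 and 7.64 in crude lysate replicate 2, and the other 7 ran from 4.64 to 6.32.

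The remaining 5 stood high in a single oocyte each. Snord104 reached 9.64 in crude lysate replicate 2, and its other 8 values ran from 4.56 to 5.66. Snord49a reached 9.17 in RNeasy replicate 2, against 5.40 to 6.05. Snord82 reached 8.29 in RNeasy replicate 1, against 3.46 to 5.73. All 3 are box C/D guides. Snord57, a box C/D guide inside Nop56, reached 8.32 in crude lysate replicate 1, against 5.79 to 6.10. Snora31, a box H/ACA guide inside Tpt1, reached 8.91 in RNeasy replicate 3, against 5.33 to 7.02. The high values fell on 7 of the 9 arrays, 3 each on RNeasy replicate 2 and crude lysate replicate 2, and no preparation held them all.

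**Figure D4:**
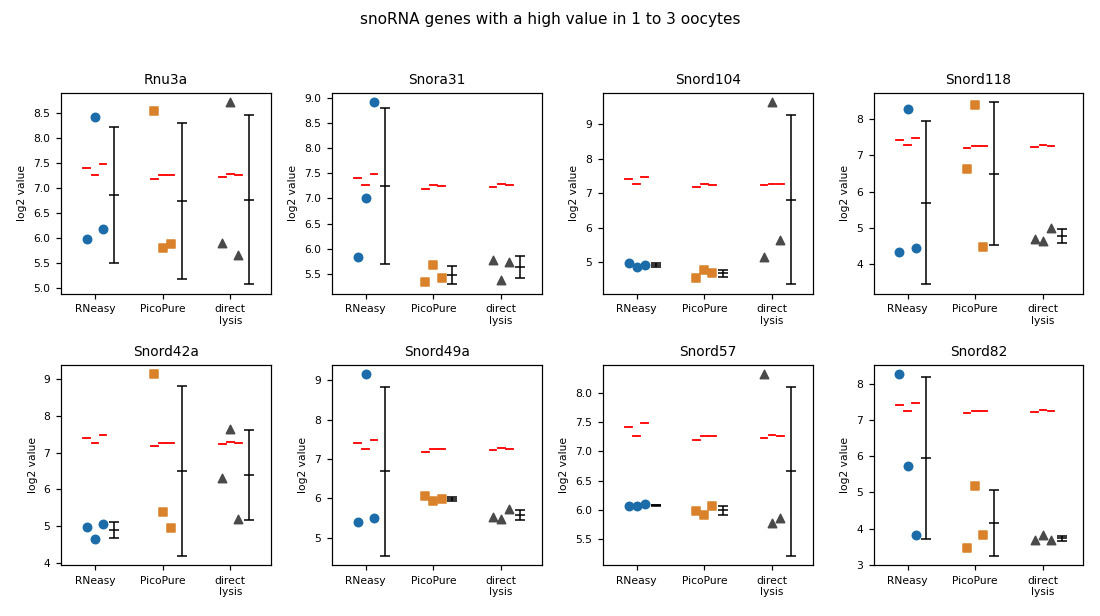
Deposited log2 values in each of the 9 oocytes for the 8 genes with an isolated high value, with the mean ± SD of the 3 oocytes of each preparation in black and the background level of each array in red. In every panel 1 to 3 oocytes lie above background and the others below it, as for Snord104, at 9.64 in crude lysate replicate 2 and at most 5.66 elsewhere.

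Across all 64 genes the median SD between oocytes of a preparation was 0.211, against 0.152 over all genes. By preparation it was 0.174 with RNeasy, 0.112 with PicoPure and 0.185 in crude lysate, against 0.126, 0.108 and 0.146 over all genes. With values below background raised to it, the median over members was 0.0685. For the 39 members above background on no array, the raised values are the background levels themselves. That median therefore reflects the spread of those levels and does not describe the RNAs.

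The proteins that bind, make or process these RNAs were above background on all 9 arrays in larger shares than the 43.1% of all genes, except for 5 of 12 factors of snoRNP assembly and the Cajal body and 2 of 5 noncoding host genes. In the lists of these proteins and hosts 0 genes passed the threshold in crude lysate against purified RNA or in PicoPure against RNeasy, where 1.01% and 0.0602% of all genes did. All 4 measured box C/D core proteins were above background on all 9 arrays, as were 4 of 6 box H/ACA proteins, 19 of 20 Sm and spliceosomal proteins, 5 of 7 proteins of the 7SK complex and 5 of 10 proteins of RNase P and MRP. So were 8 of 13 members of the SMN complex, which loads Sm proteins onto small nuclear RNAs. Both measured genes of the telomerase list, Tert and Parn, were above background on all 9 arrays as well. The same held for 16 of 19 factors that transcribe small nuclear RNA and RNA polymerase III genes. List medians of crude lysate minus purified RNA ran from -0.23 for the RNase P and MRP proteins, 8 of 10 negative, to 0.10 for the SMN complex, 6 of 13 negative, where 49.4% of all genes were negative. Rpp38, one of these proteins, differed by -0.92 ± 0.42 (SE, limma adjusted p = 0.378). Nop10, a box H/ACA core protein, differed by -0.98 ± 0.32 (SE, adjusted p = 0.228), and Bdp1, a subunit of the initiation factor of RNA polymerase III, by -0.72 ± 0.19 (SE, adjusted p = 0.141). Other genes were higher in crude lysate. Snapc2, in the same list as Bdp1, differed by 0.22 ± 0.05 (SE, limma adjusted p = 0.100), and 9 of the 19 in that list were negative. Prmt5 of the SMN complex differed by 0.69 ± 0.33 (SE, adjusted p = 0.392).

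Snrpd2, an Sm protein, had the largest difference among these named proteins in PicoPure minus RNeasy. It read 10.58, 11.37 and 10.50 with RNeasy, 8.58, 6.93 and 7.25 with PicoPure, and 8.58, 7.75 and 7.53 in crude lysate. The RNeasy values were above all others, and PicoPure minus RNeasy was -3.23 ± 0.47 (SE), but the limma adjusted p was 0.0983. Gtf3a encodes TFIIIA, which binds 5S RNA and its gene, and Rpl5 the ribosomal protein that carries 5S RNA. Where n-R5s136 differed by -1.87 between PicoPure and RNeasy, Gtf3a differed by -0.10 (adjusted p = 0.909) and Rpl5 by -0.32 (adjusted p = 0.596). Mepce, which caps 7SK RNA, differed by 0.21 (adjusted p = 0.802).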

How the data were processed

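The 9 arrays came as 1 table of 35556 rows, with 0 missing values. The submitters' processing notes name GCOS, Affymetrix Expression Console and GCRMA, a background correction and normalization, without versions or order. The scale of the deposited values was not stated and was read as log2 from their range, 2.41 to 13.90. Rows were named through the platform probe table: 21789 had 1 symbol, 1621 several and 12146 none, which left 19938 genes, and all 64 members matched RefSeq. Members and lists were chosen with earlier results of these data known. Groups came from the sample titles. All genes were fitted over all 9 arrays, 3 per preparation, with limma 3.58.1 (lmFit and eBayes, R 4.3.3), two-sided, with Benjamini-Hochberg adjustment and a threshold of 0.05. The fit was tested on simulated data. Members named in the text were those called, those of small classes, those with more than 1 row, and those above background in 1 preparation but not another. From the larger classes came those highest against background, whether or not they exceeded it. The most and least variable of these classes were taken among genes above background on all 9 arrays. Isolated values, members whose groups do not overlap and members compared with their host genes were chosen after they were seen. From the protein lists, genes were named among the 2 with the smallest p in crude lysate against purified RNA. The RefSeq table gives no strand, so surrounding genes were matched by span. Same-numbered oocytes of different preparations had correlations of their deviations from the group means between -0.09 and 0.13, so the numbers were not taken as pairs. Alternatives changed normalization, the filter, the background, the choice of row, the variance model and the samples. The number of arrays limits the precision.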

Additional observations from a re-analysis of the deposited data

Results flagged for a closer look

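Among the 6 oocytes of purified RNA, 7 of 33 named members had a highest value set apart from the rest by Dixon's test, which flags a small share of groups by chance alone. Several of the 33, among them Rnu12, Snora73b, Snord42a and Snord49a, were named because they were above background in 1 preparation and not in another, which favours lone high values, so the number flagged is partly set by that choice. RNeasy replicate 2 held 5 of them. There Rnu12 read 8.68 (the others 6.96 to 7.42), Scarna13 9.24 (7.65 to 7.82), Snora73b 8.22 (6.81 to 7.14), Snord49a 9.17 (5.40 to 6.05) and Snord58b 3.44 (3.05 to 3.18), the last below background. Rmrp read 8.69 in RNeasy replicate 3 (7.78 to 8.06), and Snord42a 9.15 in PicoPure replicate 1 (4.64 to 5.40).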

How the results depend on the processing

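No result changed direction while called. Crude lysate against purified RNA called 0 members, and 1 with quantile normalization, median centring, the filter on low values, the mean of rows or every row tested. Crude lysate against RNeasy called 0, and 1 with the mean of rows, every row or a trended variance. PicoPure against RNeasy called 1, with 2 for every row and 0 with a trended variance or only the groups compared. Crude lysate against PicoPure called 1, and 0 with only the groups compared. The F test called 1, and 2 with the mean of rows or every row. Leaving out 1 oocyte gave 0 to 1 calls in the first 3 of these comparisons and 0 to 2 in the last pair. The F call was lost without RNeasy replicate 1 or PicoPure replicate 2, and crude lysate against PicoPure called 2 without crude lysate replicate 3. Snora3 in crude lysate against purified RNA passed only without crude lysate replicate 3, and Rn7sk was the member called there and against RNeasy without crude lysate replicate 1. The count above background on all arrays, 7, was 11 with the 90th percentile and 2 with the 99th, and 7 to 8 without 1 oocyte. The median SD of 0.211 was 0.0685 with values raised to background, which is the spread of the background levels, since 39 of 64 members never exceeded them. The fit on only the groups compared was not run for the contrasts that need all 3 preparations.

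With the replicate number as a block, PicoPure against RNeasy and the F test each called 0 members, with an adjusted p of 0.0957 for n-R5s136 in the former; crude lysate against PicoPure kept its call at 0.0496. Same-numbered oocytes did not deviate together, so the pairing has no support in the data. For 39 of 64 members every signal was below background, which limits what their values show.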
